A study of Rattus norvegicus with 6 samples.

Results

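Lung RNA of saline-treated and monocrotaline-treated (MCT) rats was compared for 3 circular RNAs (circRNAs), known here by their array identifiers ASCRPR004442, ASCRPR013872 and ASCRPR012567, out of 14145 circRNAs on the array. The 3 were chosen by their measured pattern in the same comparison: after scaling between arrays they stood far above saline on MCT replicates 1 and 3 and less far above it on MCT replicate 2. Their contrast between the groups and the order of the MCT arrays are therefore given as a description, without a test. The saline group (n = 3) was lung of male rats that received no monocrotaline, called saline in the sample titles and an equal volume of solvent in the design text. The MCT group (n = 3) was lung of male rats given 1 intraperitoneal injection of 60 mg per kg monocrotaline. In both groups lungs were flushed with PBS and taken 28 days after the injection, and the labels give an age of 6 weeks without saying whether at injection or at sampling. The labels name no strain and do not say outright that each replicate is a separate animal, so the spread between replicates may be partly technical.

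CircRNAs form when a splice donor is joined back to an upstream acceptor, which closes an exon or several into a ring without free ends. The ring resists exonucleases, which is why digestion with RNase R before labelling removes most linear RNA and leaves circles for the array. CircRNAs often arise from exons of protein-coding genes, and some bind miRNAs or proteins. Monocrotaline is a plant alkaloid that the liver turns into a reactive product; this injures the endothelium of lung vessels, and over weeks the treated rat develops remodelled, muscular arteries and pulmonary hypertension. Lung tissue then holds a changed mix of endothelial, smooth muscle and inflammatory cells. In whole tissue, a change in how many cells of a type are present cannot be told apart from a change in RNA per cell. The host genes and the sequences of the 3 circRNAs are not named in the sources used here, so nothing can be said of which cells or pathways they belong to.

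The arrays differed in overall brightness, and this bears directly on the pattern. The 75th percentile of the processed signal, Agilent's background-subtracted spot brightness, was 75.6 to 94.5 fluorescence units under saline. MCT 1 had 41.4, MCT 2 had 95.2 and MCT 3 had 32.3 units. MCT 2 was thus as bright as the saline arrays, 2.30 times as bright as MCT 1 and 2.95 times as bright as MCT 3. Between 80.3% and 84.5% of circRNAs were well above background on the saline arrays, while MCT 1 had 63.1%, MCT 2 had 78.7% and MCT 3 had 55.1%. Saline 1 to 3 and MCT 1 shared 1 slide scan, and MCT 2 and MCT 3 another. Of 22 linear markers of lung cell types listed for a check of the tissue, 0 were among the linear probes that could be named, so the tissue label was not checked.

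Before any scaling, all 3 circRNAs were brighter on every MCT array than on every saline array. The same held for 1.46% of the 11272 tested circRNAs with a value on every array. The 3 were chosen by their scaled levels in this comparison, so nothing is read from their number. Each of the 3 has 1 spot per array. The error given with a signal is the scanner software's own error of that spot. It does not measure the spread between replicates, so overlap of error ranges compares single spots only. ASCRPR004442 gave 23.3 ± 2.79, 22.9 ± 2.61 and 33.0 ± 3.50 units on saline 1, 2 and 3. It gave 89.5 ± 9.09, 82.7 ± 8.48 and 72.9 ± 7.49 units on MCT 1, 2 and 3. The 3 MCT signals lay close together, MCT 2 stood between the other 2, and its error range of 74.2 to 91.2 units overlapped both of theirs. On these signals MCT 2 was 3.18-fold above the saline mean and MCT 1 and MCT 3 together were 3.10-fold above it.

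ASCRPR013872 showed the same order of the 3 MCT arrays. Its signals were 160.3 ± 16.1, 87.5 ± 8.84 and 117.8 ± 11.8 units on saline 1, 2 and 3, and 446.0 ± 44.6, 363.9 ± 36.4 and 310.5 ± 31.1 units on MCT 1, 2 and 3. MCT 2 again lay between MCT 1 and MCT 3, at 3.08-fold above the saline mean against 3.15-fold for the mean of the other 2. Its error range on MCT 2 reached 400.4 units and overlapped that of MCT 3, and ended just short of that of MCT 1, which began at 401.4 units. The dimmest MCT array exceeded the brightest saline array 1.94-fold here and 2.21-fold for ASCRPR004442.

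ASCRPR012567 was the exception, the circRNA of the 3 whose smaller rise on MCT 2 was already present in the unscaled signal. It gave 15.4 ± 2.17, 5.60 ± 1.37 and 14.7 ± 1.93 units on saline 1, 2 and 3. On MCT 1 and MCT 3 it gave 173.7 ± 17.4 and 104.2 ± 10.6 units, and on MCT 2 only 45.8 ± 4.95 units. The error range on MCT 2, 40.9 to 50.8 units, touched neither the saline ranges nor those of the other MCT arrays. MCT 2 stood 4.23-fold above the saline mean, and MCT 1 and MCT 3 together 12.4-fold.

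**Figure D1:**
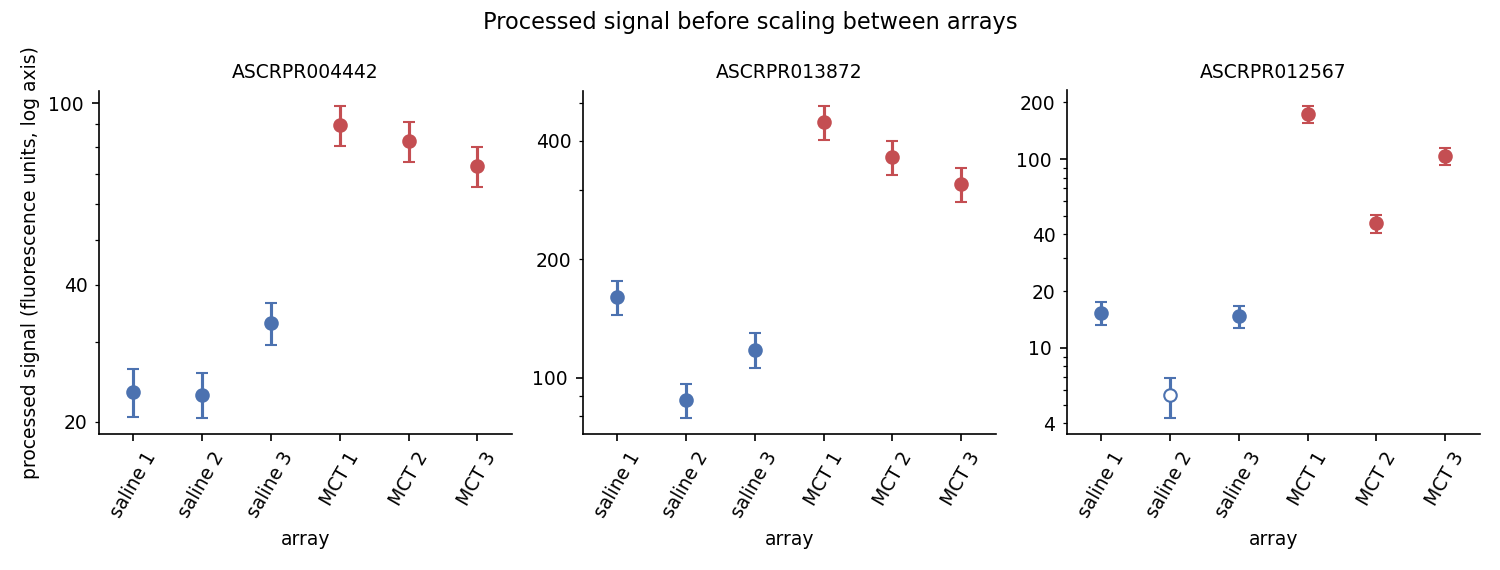
Processed signal of each circRNA on each array, in fluorescence units on a log axis, before scaling between arrays; bars are the scanner software's error of the single spot, blue is saline, red is MCT, and the open point was not well above background. All MCT points lie above all saline points, and MCT 2 lies between MCT 1 and MCT 3 for ASCRPR004442 and ASCRPR013872 but lowest of the MCT arrays, at 45.8 units, for ASCRPR012567.

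Detection was nearly complete. ASCRPR004442 and ASCRPR013872 were well above background on 6 of 6 arrays. ASCRPR012567 was well above background on 5 of 6, the exception being saline 2 at 5.60 units, where the software still marked the signal as positive and significant, a less strict mark. Its saline mean therefore rests on 2 reliable values and 1 below reliable detection. Without saline 2 its difference between groups, on the log2 scale after the scaling described below, was 3.55 instead of 3.92. Before scaling, with all 6 arrays, the difference was 3.12. No spot on any array was saturated, and no spot of the 3 circRNAs was marked as an outlier.

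Scaling by each array's 75th percentile, which sets that percentile to 0 on the log2 scale, opened the gap between the MCT arrays. ASCRPR004442 then stood at -2.01, -1.72 and -1.52 on saline 1, 2 and 3 and at 1.11, -0.20 and 1.17 on MCT 1, 2 and 3. ASCRPR013872 stood at 0.77, 0.21 and 0.32 on the saline arrays and at 3.43, 1.93 and 3.26 on the MCT arrays. ASCRPR012567 stood at -2.61, -3.75 and -2.68 on the saline arrays and at 2.07, -1.06 and 1.69 on the MCT arrays. The groups did not overlap for any of the 3, which were chosen for this pattern. Every MCT array lay above every saline array for 7.61% of the 11272 tested circRNAs with a value on all 6 arrays. MCT 1 and MCT 3 agreed to within 0.38. MCT 2 was the lowest MCT array each time, though still 1.16 to 1.55 above the highest saline array. That graded order held for 5.65% of the 11272.

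**Figure D2:**
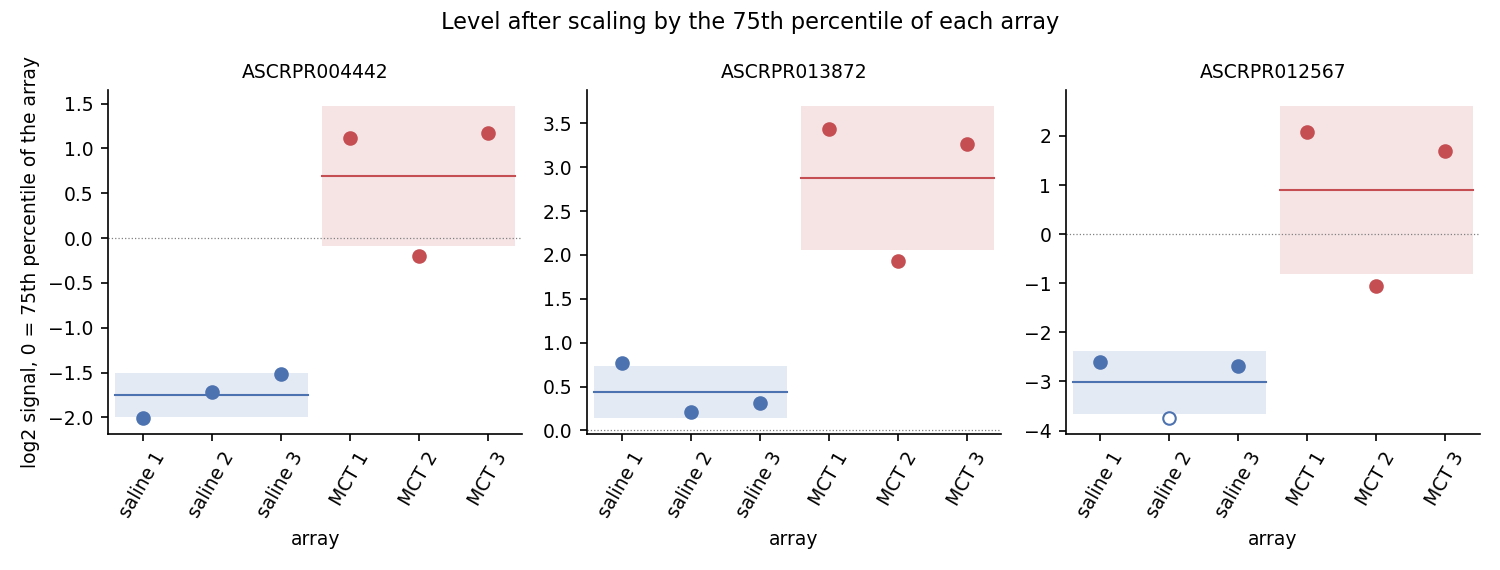
Scaled log2 level of each circRNA on each array, where 0 is the array's 75th percentile; lines and shaded bands are group means ± SD (n = 3), blue saline and red MCT, and the open point was not well above background. After scaling MCT 2 is the lowest MCT array in all 3 panels, between the saline points and the MCT 1 and MCT 3 points.

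Over the 3 arrays of each group, the scaled level of ASCRPR004442 averaged -1.75 ± 0.25 (SD, n = 3) under saline and 0.69 ± 0.78 (SD, n = 3) under MCT. The groups were apart by 2.44 ± 0.43 (SE) on the log2 scale, or 5.44-fold. The saline average of ASCRPR013872 was 0.43 ± 0.30 (SD, n = 3) and its MCT average 2.88 ± 0.82 (SD, n = 3). Here too the groups lay 2.44 ± 0.45 (SE) apart, or 5.44-fold. ASCRPR012567 averaged -3.02 ± 0.64 (SD, n = 3) without MCT and reached 0.90 ± 1.71 (SD, n = 3) with it. This was a rise of 3.92 ± 0.72 (SE), or 15.1-fold. For each of the 3 the MCT group varied more than the saline group, with MCT 2 as the array farthest from the others. Without scaling the SD among MCT arrays was 0.15 for ASCRPR004442 and 0.26 for ASCRPR013872, below the 0.30 and 0.44 of their saline arrays, and 0.97 for ASCRPR012567 against 0.82.

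Among the 11280 circRNAs fitted, the difference of ASCRPR012567 was the largest upward one, and those of ASCRPR004442 and ASCRPR013872 ranked 19 and 20 from the top. These ranks moved with the processing: in the authors' processed values they were 3 for ASCRPR012567, 39 for ASCRPR004442 and 9 for ASCRPR013872, and with normexp background correction and quantile normalization 28, 80 and 14. At an adjusted p below 0.05 by limma, 0% of the circRNAs were called higher in MCT, and 0 of the 3 were. The looser criterion of an unadjusted p below 0.05 and at least 1.5-fold held for 4.9% of all circRNAs in the upward direction and for all 3 of these, which were chosen on that contrast. Without MCT 2 the fit called 94 circRNAs higher, where the differences were 2.89 for ASCRPR004442, 2.91 for ASCRPR013872 and 4.89 for ASCRPR012567.

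Split by array, the rise of ASCRPR004442 over its saline mean was 2.86 on MCT 1, 1.55 on MCT 2 and 2.92 on MCT 3. In folds, MCT 2 was 2.92-fold and the mean of MCT 1 and MCT 3 was 7.43-fold above saline. The rise of ASCRPR013872 was 2.996, 1.501 and 2.83, which makes MCT 2 2.83-fold and the other 2 together 7.53-fold higher. The rise of ASCRPR012567 was 5.08, 1.96 and 4.70, or 3.89-fold on MCT 2 and 29.7-fold on the other 2. The gap between the mean of MCT 1 and MCT 3 and MCT 2 was thus 1.35, 1.41 and 2.94 for the 3 in that order. Scaling itself moved MCT 2 down by 1.20 against MCT 1 and by 1.56 against MCT 3. Without it the gap was -0.035 for ASCRPR004442, 0.032 for ASCRPR013872 and 1.55 for ASCRPR012567.

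The graded order, with MCT 2 above every saline array but below MCT 1 and MCT 3, held for all 3 under scaling by the percentile, by quantiles, by normexp background correction with quantiles, and in the authors' processed values. It held for 1 of the 3, ASCRPR012567, without scaling. Separation of the groups held for all 3 in each of these forms. Of 11272 circRNAs, 945 were separated and 694 had the graded order under quantiles. With normexp and quantiles the counts were 885 and 651, and those of the other forms are given below. The 3 were chosen for this order, so nothing is read from its presence in related forms of processing. The size of the rise on MCT 2 differed between the forms of processing. In the authors' processed log2 values it was 0.95 for ASCRPR004442, 1.45 for ASCRPR013872 and 0.97 for ASCRPR012567, and with normexp and quantiles 0.56, 1.15 and 0.49. The whole difference of ASCRPR012567 was 2.57 in the authors' processed values and 1.66 with normexp, against 3.92. That of ASCRPR004442 was 1.76 and 1.15, against 2.44, while ASCRPR013872 kept 2.32 and 1.96.

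**Figure D3:**
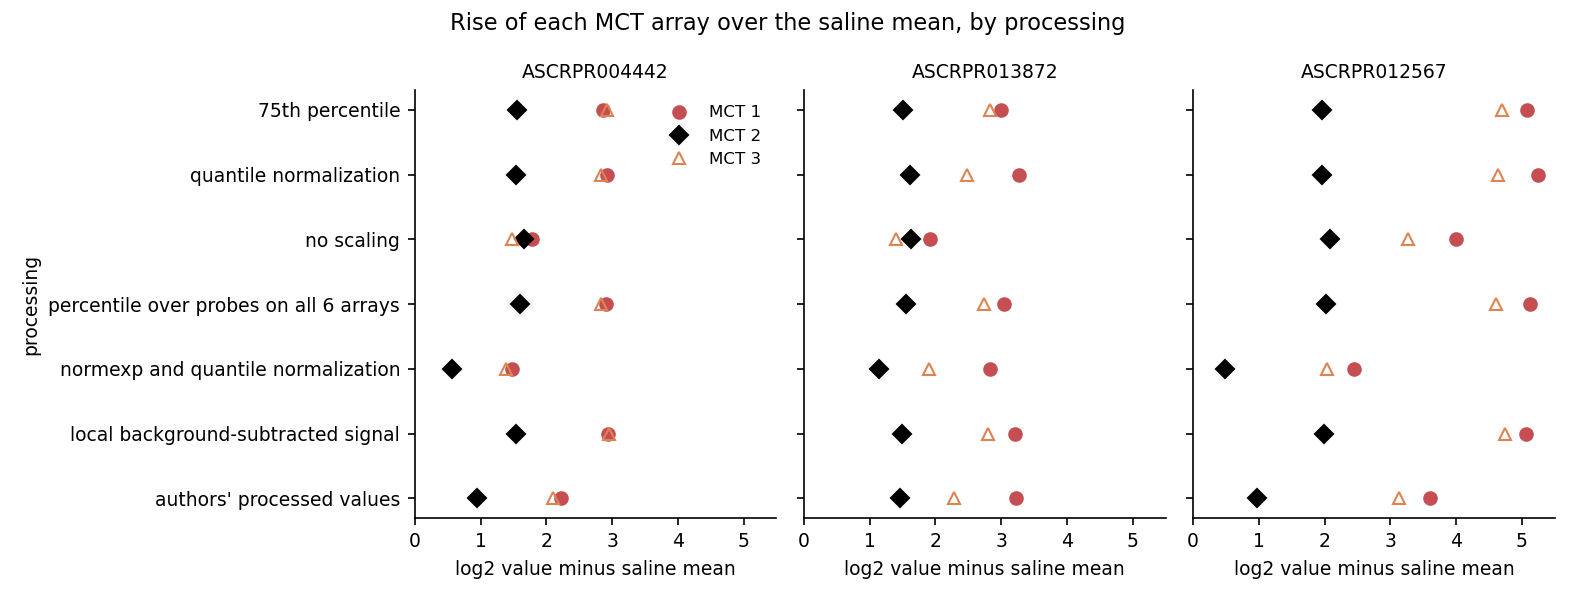
Log2 rise of each MCT array over the saline mean (horizontal axis) under 7 ways of processing (vertical axis); circles are MCT 1, diamonds MCT 2 and triangles MCT 3. The diamond sits left of the other marks in every line except that of no scaling for ASCRPR004442 and ASCRPR013872, where the diamond lies between the circle and the triangle.

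Over all 11272 circRNAs with complete values, MCT 2 was the lowest MCT array in 30.1% with scaling and in 2.79% without it. Among circRNAs higher on every MCT array the share was larger. With scaling, all MCT arrays exceeded all saline arrays for 858 of the 11272, or 7.61%. In 637 of these, or 5.65% of all, MCT 2 was the lowest MCT array, while MCT 1 was lowest in 112 and MCT 3 in 109. The graded order thus held for 74.2% of the circRNAs whose MCT values all lay above saline. Without scaling, separation held for 1.46% and the graded order for 0.79%, or 89 circRNAs. In the authors' processed values the shares were 8% and 5.87%. The 3 circRNAs lie inside these counts by the way they were chosen, so nothing is read from their number.

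After scaling, MCT 2 departed less from saline than the other MCT arrays over the whole array. MCT 1 and MCT 3 were also the dimmer arrays, with 63.1% and 55.1% of circRNAs well above background against 78.7% on MCT 2. Whether dim signals widened their differences was not tested. The SD of the scaled difference from the saline mean, over the 11272 circRNAs, was 0.59 on MCT 2 against 0.97 on MCT 1 and 1.05 on MCT 3. A rise of at least 1 was seen for 1.89% of circRNAs on MCT 2, 8.53% on MCT 1 and 16.5% on MCT 3. In units of that spread, the rises on MCT 2 remained the smallest but lay closer to those on the other MCT arrays. ASCRPR004442 rose by 2.96 SDs of MCT 1, 2.64 of MCT 2 and 2.79 of MCT 3. ASCRPR013872 rose by 3.09, 2.56 and 2.70 SDs, and ASCRPR012567 by 5.25, 3.34 and 4.49 SDs. Ordered by their rise on MCT 2 alone, the 3 ranked 23, 30 and 14 of 11272. On MCT 3 the same ranks were 103, 122 and 2, and on MCT 1 they were 31, 25 and 1.

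**Figure D4:**
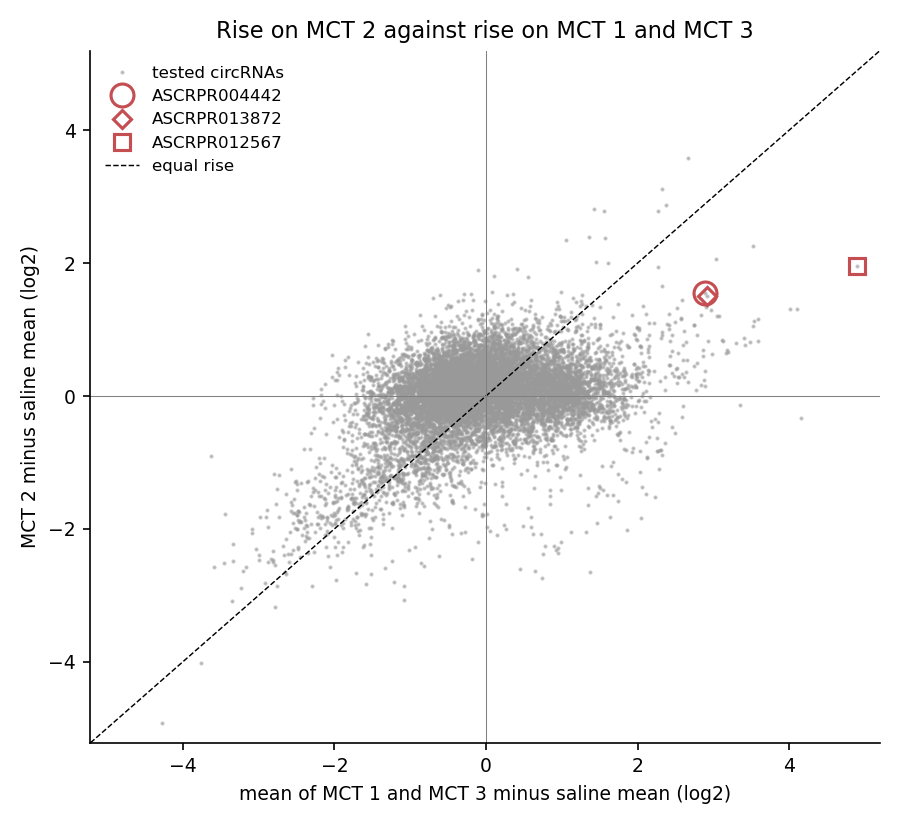
Scaled log2 rise over the saline mean on MCT 2 (vertical axis) against the mean rise on MCT 1 and MCT 3 (horizontal axis), 1 grey point for each of 11272 circRNAs, with the 3 circRNAs in red and equal rise as a dashed line. The 3 lie right of the dashed line, at 1.501 to 1.96 on the vertical axis, and ASCRPR012567 lies farthest right of all points.

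Another 25 circRNAs rose on MCT 1 and MCT 3 by at least as much as ASCRPR004442, the lowest of the 3 at a mean of 2.89. In all 25, MCT 2 was lower than both other MCT arrays, as a choice by high values on those arrays favours. Their median rise on MCT 2 was 0.85, with quartiles of 0.77 and 1.21 and a range of -0.34 to 2.26. For each of the 3 circRNAs, 2 of these 25 had a larger rise on MCT 2. The 3 were chosen for a rise on MCT 2 as well and the 25 were not, so nothing is read from this.

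The place of each circRNA within its own array uses no scaling factor, but ranking also removes differences in brightness between arrays. The percentile given is the share of the array's circRNA probes with a dimmer signal, and is compared between arrays for the same probe only. ASCRPR004442 stood at 41.6%, 46.7% and 48.8% on the saline arrays and at 87.4%, 71.8% and 86.7% on MCT 1, 2 and 3. ASCRPR013872 stood at 83.6%, 77.7% and 79.4% on the saline arrays and at 97.6%, 92.9% and 96.0% on the MCT arrays. ASCRPR012567 stood at 32.4%, 18.4% and 29.8% and then at 93.6%, 57.3% and 90.4%. As with the scaled values, MCT 2 was lowest of the MCT arrays and above every saline array for each of the 3. The ranks are not independent of those values, and the unscaled signals of ASCRPR004442 and ASCRPR013872 did not show that order.

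**Figure D5:**
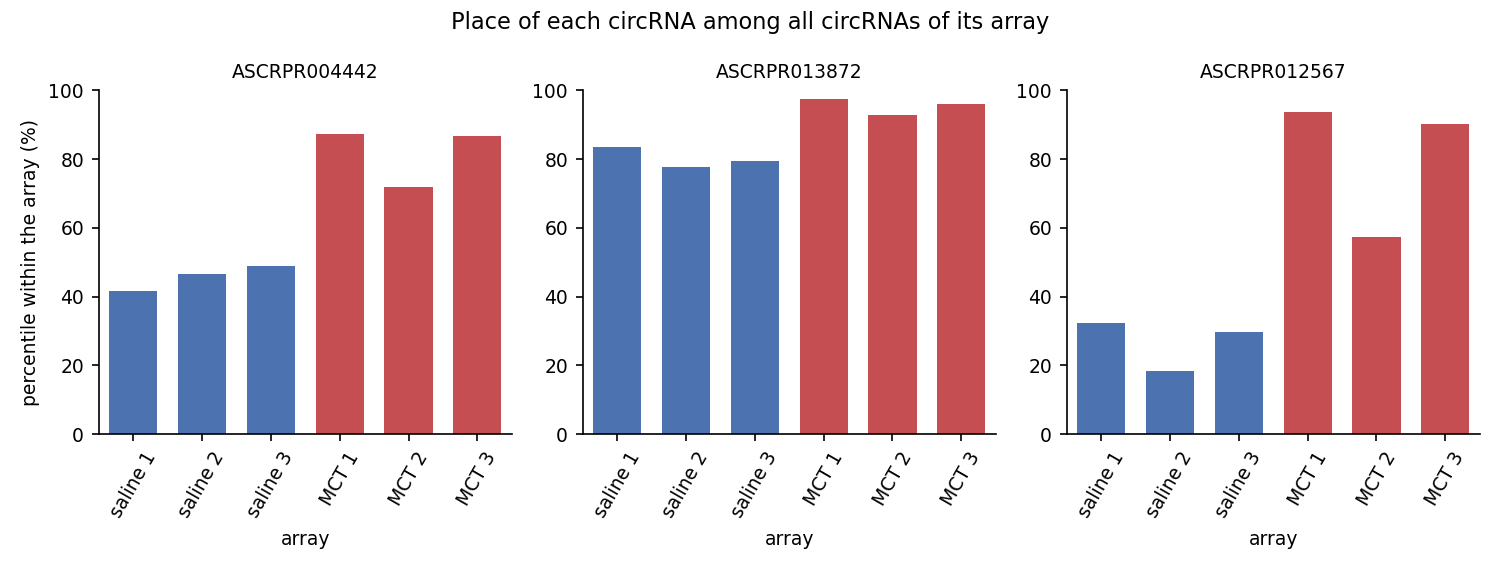
Percentile of each circRNA among the circRNA probes of the same array (vertical axis, %), 1 bar per array, blue saline and red MCT. In each panel the MCT 2 bar is the shortest red bar and taller than every blue bar, with the widest step, 57.3% against 90.4% and 93.6%, for ASCRPR012567.

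Among themselves, ASCRPR004442 and ASCRPR013872 had nearly the same profile. With each profile taken from its own saline mean, they differed by a root mean square of 0.31 over the 6 arrays. ASCRPR012567 differed from them by 1.25 and 1.19, mainly through its larger rise on MCT 1 and MCT 3. The 2 other tested circRNAs nearest to the mean profile of the 3 were ASCRPR008341, at a root mean square difference of 0.30, and ASCRPR009600, at 0.34, over the same 6 arrays. Both were well above background on 6 of 6 arrays, and both had a smaller MCT 2 signal without scaling too.

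ASCRPR008341 gave 39.2, 31.4 and 38.8 units on saline 1, 2 and 3, and 219.1, 81.5 and 137.9 units on MCT 1, 2 and 3. Its scaled rise was 3.68, 1.05 and 3.36 on the 3 MCT arrays. ASCRPR009600 gave 238.1, 206.3 and 224.2 units on the saline arrays and 1070.2, 527.4 and 1084.7 units on the MCT arrays, a scaled rise of 3.35, 1.12 and 3.72. For both, the mean of MCT 1 and MCT 3 exceeded MCT 2 without scaling, by 1.09 and 1.03 on the log2 scale. In this they resembled ASCRPR012567, at 1.55, rather than ASCRPR004442 at -0.035 and ASCRPR013872 at 0.032. Among the 20 nearest circRNAs of each member, MCT 2 was the lowest MCT array without scaling in 15, 15 and 18 for ASCRPR004442, ASCRPR013872 and ASCRPR012567, against 2.79% of all circRNAs. With scaling it was lowest in all 20 each time, against 30.1% of all circRNAs. Choosing the 20 by their scaled profile fixes the scaled count and favours the unscaled one, so nothing is read from either.

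The surroundings of the spots and the slides were looked at as measured facts. The local surround of the 3 spots read 14 to 22 units on all 6 arrays. Spot medians were 72 to 536 units on the MCT arrays and 31 to 187 units on the saline arrays. The saline medians of ASCRPR012567 lay nearest to the surround, at 42, 31 and 41 units. The 24 spots within 2 rows and 2 columns of each circRNA were compared between MCT and saline after scaling. Their median log2 difference was 0.17 around ASCRPR004442, -0.031 around ASCRPR013872 and -0.052 around ASCRPR012567. On single MCT arrays the median rise of these neighbouring spots ran from -0.29 to 0.43. None of them differed by as much as the circRNA at the centre, and the highest reached 1.33, 1.17 and 1.29. The 3 were chosen for a large difference, so nothing is read from this. Within slide 1, which holds MCT 1 and the saline arrays, the scaled log2 differences were 2.86, 2.996 and 5.08. Slide 2 holds no saline array. On it, after scaling, MCT 3 exceeded MCT 2 by 1.38 for ASCRPR004442, 1.33 for ASCRPR013872 and 2.75 for ASCRPR012567. Without scaling, MCT 3 was below MCT 2 for ASCRPR004442, at 72.9 against 82.7 units, and for ASCRPR013872, at 310.5 against 363.9 units. For ASCRPR012567 it was above MCT 2, at 104.2 against 45.8 units.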

How the data were processed

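RNA of 6 lung samples, digested with RNase R per the labels' protocols, was hybridised to 1-colour arrays, 1 per sample. The deposited intensity values are Agilent Feature Extraction 11.0.1.1 output per the file headers: processed signals, background-subtracted and detrended, raw spot and surround medians, and detection marks, with no scaling between arrays. The authors' processed table holds deposited log2 values of 14145 circRNAs; its medians (6.06 to 6.08) and maximum (17.6) are as after quantile normalization, it rose by 0.977 to 1.19 per doubling of spot brightness, and its background treatment is unknown. limma is named, with no step, in the submitters' processing notes. Every value column had a sample.

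Control spots and 25 to 61 non-control outlier spots per array were left out, spots of a probe averaged (14227 probes), and each array's 75th percentile subtracted from log2 processed signals. limma 3.58.1 in R 4.3.3 (lmFit, eBayes, no covariate) was fitted on all 6 arrays and 11280 circRNAs well above background on at least 3 arrays, with Benjamini-Hochberg adjustment, after a test of the script on simulated data. The number of arrays limits the precision of the group values. Alternatives were other scalings, background corrections, filters and priors, slide and replicate blocks, each array left out, and the authors' table. The circRNAs and rules were chosen with earlier results of these data known. The named circRNAs are the 3 described and the 2 nearest to their mean profile. No host gene, sequence or coordinate is given, because the files do not pair these probes with any.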

Additional observations from a re-analysis of the deposited data

How the results depend on the processing

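Each of the 3 circRNAs kept a higher mean in MCT in every alternative that tested it. ASCRPR012567 had no value with the filter on all 6 arrays. Without scaling, which lowers the median log2 difference of all circRNAs from -0.041 to -0.84, the differences were 1.65 for ASCRPR004442 and 1.64 for ASCRPR013872, and the gap of MCT 1 and MCT 3 over MCT 2 turned to -0.035, fell to 0.032 and fell to 1.55 for ASCRPR004442, ASCRPR013872 and ASCRPR012567. In the authors' values the differences of ASCRPR004442 and ASCRPR012567 were 1.76 and 2.57, and the rise of ASCRPR004442 on MCT 2 was 0.95. With normexp (offset 50) and quantiles they were 1.15 and 1.66, with rises on MCT 2 of 0.56 and 0.49. The cause was not tested, but an offset shrinks log differences of dim spots by construction. The local background-subtracted signal, an alternative added after seeing the data, moved no level by more than the replicate spread and no count by over 1.5 times.

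Against 0 circRNAs higher at an adjusted p below 0.05 by limma (553 at an unadjusted p below 0.05 and 1.5-fold), slide as a block gave 12 and slide 1 alone 71 (917). Both are the contrast of MCT 1, a lone array assumed to vary like the saline arrays in the latter, with saline. A trended and robust prior gave 1. By the looser criterion no filter gave 1433, no scaling 47, and normexp with quantiles 314. With 1 array left out in turn the counts ran from 0 to 94 and from 301 to 1455, the highest without MCT 2, and the differences of ASCRPR004442, ASCRPR013872 and ASCRPR012567 from 2.21 to 2.89, 2.17 to 2.91 and 3.33 to 4.89. With 1 saline array left out, the rise on MCT 2 ran from 1.42 to 1.66, 1.39 to 1.67 and 1.59 to 2.16.

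The replicate block gave 18 (368) and left the differences at 2.44, 2.44 and 3.92. Same-numbered arrays deviated from their group means with correlations of -0.23, -0.36 and -0.45. No array (0 of 6) was closest to the one that shares its number, so no pairing by number was seen. With 3 arrays per group that also differed in brightness, this check cannot exclude a pairing. Signal over background limits ASCRPR012567 most, which was below reliable detection on saline 2.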
